A study of Mus musculus with 112 samples.

Results

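The adipocyte marker genes are 10 genes that mature fat cells express strongly: Adipoq, Fabp4, Plin1, Cfd, Retn, Lep, Lpl, Cidec, Pparg and Car3. Their members were the probe sets whose only gene symbol in the platform annotation was one of these names. That gave 15 of 45137 probe sets for 8 of the 10 genes, 13 of 22626 on the MOE430A array (array A) and 2 of 22511 on the MOE430B array (array B). Adipoq, Retn, Lep, Cidec and Pparg had 1 probe set each on array A, Lpl and Car3 had 2 each and Fabp4 had 4, and both probe sets of array B were Car3. Plin1, which coats the lipid droplet, and Cfd, the secreted complement factor adipsin, had no probe set listed under their symbol alone and have no value here.

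The values come from 56 spontaneous mammary tumours of mice that were bred from 18 AKXD sublines and carried the PyMT transgene, with 3 tumours in 16 sublines and 4 tumours in sublines 2 and 25. AKXD sublines are recombinant inbred mouse lines, each a fixed mixture of the genomes of strains AKR/J and DBA/2J. In every mouse the transgene put the polyoma middle T antigen under the mouse mammary tumour virus promoter (MMTV), which is active chiefly in mammary epithelium. All groups therefore share the transgene and differ by subline, no subline is a control, and the labels used here give no age and no cell type.

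The deposited values are log2 expression values of single-colour Affymetrix arrays, so a difference of 1 is a doubling of signal. On array A the 3 arrays of subline 23 and the array of tumour 3 of subline 25 stood apart, with a median correlation with the other arrays between 0.223 and 0.948, and were left out. That kept 52 tumours in 17 sublines, each with a median correlation of at least 0.97. On array B the arrays of tumour 3 of subline 11, tumour 2 of subline 23 and tumour 3 of subline 25 were left out, which kept 53 tumours in 18 sublines with a median correlation of at least 0.968. The number of arrays, and no count of reads, limits the precision of each value. The luminal mammary epithelium markers Krt8 and Epcam were high in all 52 tumours. Krt8, a keratin of luminal cells, ran from 11.60 to 12.94, and Epcam, an epithelial adhesion molecule, from 12.32 to 13.35. Other luminal genes reached lower values, with 8.27 for Krt19 and 8.28 for Cldn4 in their lowest tumours.

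The mammary gland grows within a pad of white fat, and a mammary tumour is surrounded by that fat and by skin and muscle of the body wall. Fat cells store triglyceride in a single large droplet, take up fatty acids that are released from lipoproteins in the blood, and secrete hormones called adipokines. Their formation is driven by the nuclear receptor PPARγ, the product of Pparg, together with transcription factors of the C/EBP family.

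Promoter sequences are shown for 5 of the marker genes because these genes are regulated by PPARγ and C/EBP factors in fat cells, and because 4 of the 5 varied together over the tumours while Lep did so less closely. Each is the 250 bases before a RefSeq transcription start on build GRCm38.p6, in the direction of the gene. The coordinates are chr16:23146286-23146535 (plus strand) for Adipoq, chr8:3655520-3655769 (plus strand) for Retn, chr6:29059971-29060220 (plus strand) for Lep, chr6:113434765-113435014 (minus strand) for 1 of 2 starts of Cidec and chr6:115421816-115422065 (plus strand) for 1 of 3 starts of Pparg. Capitals mark matches, on either strand, to the C/EBP motif TTGCNNAA, the PPAR half-site AGGTCA or the CCAAT box, which reads ATTGG on the opposite strand.
Adipoq: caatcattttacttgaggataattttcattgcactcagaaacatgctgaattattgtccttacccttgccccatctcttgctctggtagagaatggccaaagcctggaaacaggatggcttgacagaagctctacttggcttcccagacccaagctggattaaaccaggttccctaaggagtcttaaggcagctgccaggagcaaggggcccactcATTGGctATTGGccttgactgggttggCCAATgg
Retn: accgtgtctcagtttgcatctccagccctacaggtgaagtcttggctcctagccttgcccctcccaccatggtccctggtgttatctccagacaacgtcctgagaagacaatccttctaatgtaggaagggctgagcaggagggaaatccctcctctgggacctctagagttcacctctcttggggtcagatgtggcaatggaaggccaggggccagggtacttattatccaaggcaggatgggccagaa
Lep: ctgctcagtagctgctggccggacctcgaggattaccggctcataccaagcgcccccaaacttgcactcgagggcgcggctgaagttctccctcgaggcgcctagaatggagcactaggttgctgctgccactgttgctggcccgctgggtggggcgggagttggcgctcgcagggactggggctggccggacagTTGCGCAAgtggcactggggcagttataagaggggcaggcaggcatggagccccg
Cidec: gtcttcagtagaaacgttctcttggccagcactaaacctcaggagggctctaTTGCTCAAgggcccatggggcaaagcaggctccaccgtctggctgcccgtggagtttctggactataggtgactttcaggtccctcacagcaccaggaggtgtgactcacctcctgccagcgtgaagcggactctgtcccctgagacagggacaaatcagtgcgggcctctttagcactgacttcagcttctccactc
Pparg: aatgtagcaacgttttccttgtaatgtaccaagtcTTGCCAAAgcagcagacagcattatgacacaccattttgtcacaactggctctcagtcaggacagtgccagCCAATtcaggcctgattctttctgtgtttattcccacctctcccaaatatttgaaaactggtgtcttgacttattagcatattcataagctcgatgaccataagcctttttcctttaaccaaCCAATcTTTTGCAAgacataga
The C/EBP motif matched at positions -55 to -48 from the start of Lep, at -198 to -191 from that of Cidec, and at -215 to -208 and -16 to -9 from that of Pparg. Adipoq held 3 CCAAT matches within 34 bases of its start, and the Retn window held none of the letters searched. The starts of Cidec and Pparg shown are those with a C/EBP match. The Cidec start not shown (chr6:113435761-113436010) held none of the letters searched. The Pparg starts not shown, at chr6:115360894-115361143 and chr6:115362099-115362348, each held a PPAR half-site and no C/EBP match. Over all RefSeq promoters with this window, 9.56% of 32851 held the C/EBP motif, 14% the PPAR half-site and 33.8% the CCAAT box. Of the 10 promoters of 7 marker genes, 4 held the C/EBP motif, 2 the PPAR half-site and 3 the CCAAT box. The direct repeat of 2 PPAR half-sites with 1 base between them matched 0 of these 10 and 0.0335% of all. Matches may overlap, and such a match is a string of letters in a window, not a measured binding site.

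Apart from Lep, marker genes of fat cells were among the most variable transcripts of these tumours, and tumours of the same subline often differed widely. Estimates of the share of variance between sublines lay near 0 on array A, with 95% intervals that reached up to 0.41. The median standard deviation (SD) of the 13 marker probe sets over 52 tumours was 0.90 log2 units, against 0.15 over all 22626 probe sets of array A. Less RNA of a marker in a bulk tumour sample can mean fewer fat cells, less RNA per fat cell or less RNA from other cells that express the gene. These cannot be told apart here. The plot of the 8 genes by tumour and subline shows the subline means beside the scatter of the tumours around them. For Adipoq the means ran from 7.22 to 10.43, and the pooled SD of tumours within sublines was 1.43.

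**Figure D1:**
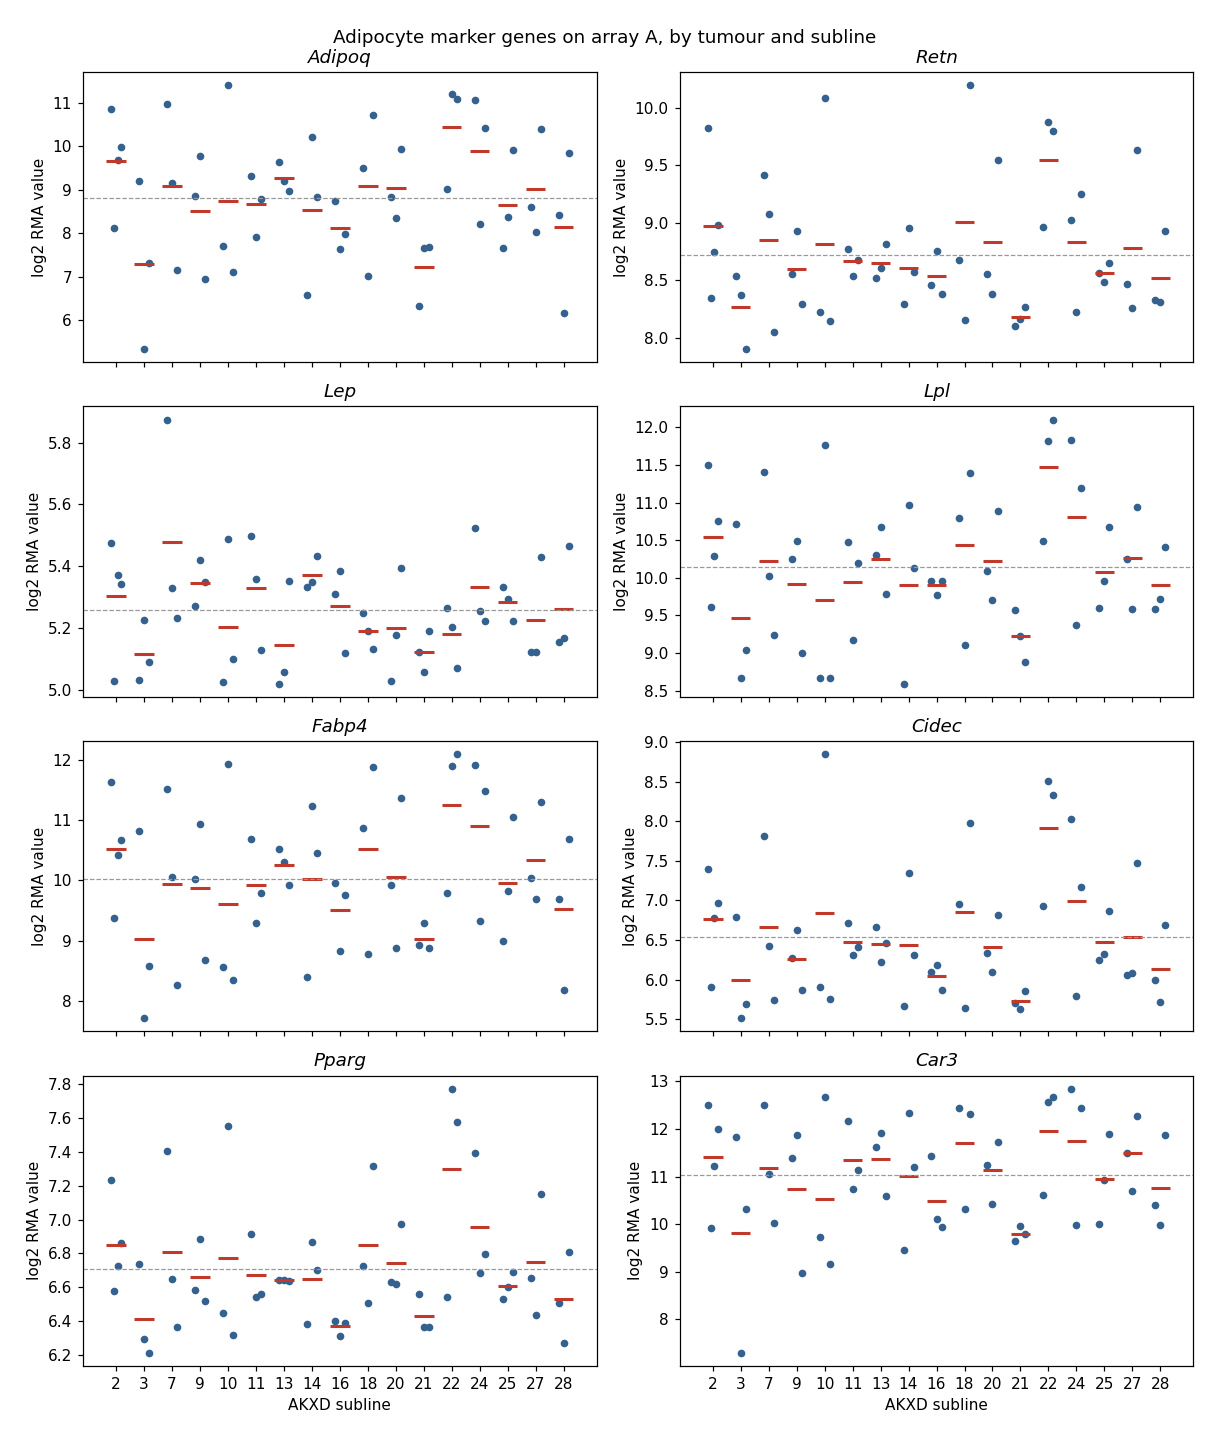
Log2 expression value (vertical axis) of the brightest array A probe set of each marker gene in 52 tumours, by AKXD subline (horizontal axis). Each blue point is 1 tumour, each red bar the mean of a subline and each dashed line the mean of all tumours; Adipoq runs from 5.34 to 11.40, and subline 10 alone spans 7.10 to 11.40.

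Among the secreted products, Adipoq (probe set 1422651_at), which encodes the adipokine adiponectin, had values of 5.34, 8.83 and 11.40 in the lowest, the median and the highest tumour. The highest tumour lay 67.0-fold above the lowest, and 99.9% of the probe sets of array A had a smaller SD than its 1.44. Retn (1449182_at), which encodes resistin, an adipokine of mouse fat cells, ran from 7.91 over a median of 8.56 to 10.20, a 4.89-fold range. Lep (1422582_at), which encodes the satiety hormone leptin, ran only from 5.02 over 5.24 to 5.87, a 1.81-fold range at the low end of an array whose values reach from 3.71 to 14.89. Its SD of 0.17 was close to the median of all probe sets, and 61.2% of them had a smaller one. Adipoq and Retn thus spread widely over the tumours, and Lep did not.

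Genes of fat uptake and storage spread less than Adipoq, with SDs of 0.91 for Lpl, 1.16 for Fabp4 and 0.81 for Cidec. Lpl (1415904_at) encodes lipoprotein lipase, which releases fatty acids from blood lipoproteins, and ran from 8.59 over 10.11 to 12.10, an 11.4-fold range. The values of Fabp4 (1417023_a_at), the fatty acid binding protein of fat cells, were 7.72, 9.94 and 12.09 in the lowest, the median and the highest tumour, a 20.6-fold range. Cidec (1452260_at), whose product makes lipid droplets fuse and grow, ran from 5.51 over 6.32 to 8.85, a 10.1-fold range.

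The regulator Pparg (1420715_a_at) spread less, with 6.21, 6.63 and 7.77 in the lowest, the median and the highest tumour, a 2.94-fold range and an SD of 0.36. Car3 (1449434_at) encodes carbonic anhydrase 3, an abundant cytosolic enzyme of fat cells that skeletal muscle and liver also express. It had values of 7.30, 11.17 and 12.85, a 46.8-fold range and an SD of 1.19. The share of array A probe sets with a smaller SD was 99.8% for Car3, 99.7% for Fabp4, 99.6% for Lpl, 99.4% for Cidec, 98.3% for Retn and 94.5% for Pparg. The median tumour lay nearer to the lowest than to the highest in the brightest probe sets of Retn, Lep, Lpl, Cidec and Pparg.

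Further probe sets of the same gene told the same tumours apart to different degrees. The 3 other Fabp4 probe sets had SDs of 1.0, 0.63 and 0.25, and pairs of Fabp4 probe sets correlated over the 52 tumours with a Pearson r of 0.73 to 0.99. Pairs within Lpl and within Car3 on array A both had r = 0.97. Both array B probe sets of Car3 were flatter, with 6.19 to 7.75 (SD 0.32) and 3.54 to 5.55 (SD 0.33), the second at the low end of array B, whose values start at 3.51. They still followed the brighter array A probe set of Car3 over 51 tumours kept on both arrays, with r of 0.78 and 0.76 (Spearman rho 0.84 for both). All 10 such pairs passed a two-sided permutation test with 100000 resamples (adjusted p = 1e-05, the smallest that it can give).

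No marker gene passed the test of differences among sublines against the spread within them. By limma's moderated F test across sublines, 0 of 13 marker probe sets on array A were called at a Benjamini-Hochberg adjusted p under 0.05, where 1.74% of all 22626 probe sets (393) were called. Without adjustment, 0 of 13 had a p under 0.05, against 15.2% of all probe sets. On array B, 0 of 2 were called and 0 of 2 had an unadjusted p under 0.05, where 0.671% of all probe sets were called and 11% passed unadjusted. Adjusted p lay between 0.582 and 0.886 on array A and between 0.895 and 0.913 on array B. With all 56 arrays in place of the kept ones, 0 of 13 and 0 of 2 were called as well. Array quality weights alone gave calls, for 4 of 13 marker probe sets, in a fit that called 40.8% of all probe sets. With the Adipoq value of each tumour as a covariate, an alternative chosen after seeing the data, 0 of the other 12 marker probe sets were called, where 1.65% of all probe sets were.

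The intraclass correlation is the share of variance that lies between sublines, and falls below 0 where tumours of a subline differ more than tumours of different sublines. It was 0.01 for Adipoq (95% interval -0.21 to 0.34), -0.10 for Fabp4 (-0.28 to 0.21), -0.01 for Lpl (-0.22 to 0.32) and -0.09 for Car3 (-0.27 to 0.23). Values were 0.05 for Cidec (-0.18 to 0.39), 0.07 for Pparg (-0.17 to 0.41), -0.02 for Retn (-0.23 to 0.31) and 0.01 for Lep (-0.21 to 0.35). The intervals are wide with 17 sublines, and over the 13 probe sets their upper ends lay between 0.19 and 0.41. It was below 0 in 8 of 13 marker probe sets and in 38.3% of all on array A, and in 2 of 2 and 42.2% on array B. In the plot of spread against this share the marker probe sets lie near the zero line, most of them toward the right, while Lep (SD 0.17, above 61.2% of probe sets) and the flattest Fabp4 probe set (SD 0.25, above 85.3%) lie further left.

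**Figure D2:**
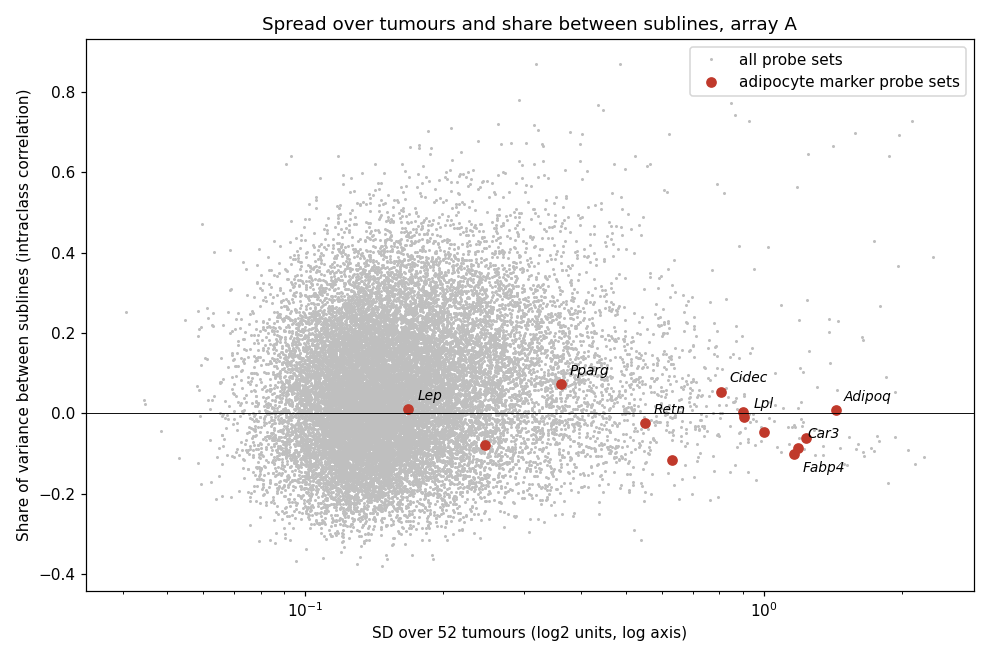
Share of variance between sublines (intraclass correlation, vertical axis) against the SD over 52 tumours in log2 units (horizontal log axis) for each array A probe set. Grey points are all 22626 probe sets and red points the 13 marker probe sets; Adipoq combines an SD of 1.44 with a share of 0.01.

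The highest subline mean of Adipoq was 10.43 ± 1.23, in subline 22, and the lowest was 7.22 ± 0.77, in subline 21 (SD, n = 3 each), a 9.31-fold span. Next to subline 22 came subline 24 with 9.90 ± 1.50 (n = 3), subline 2 with 9.66 ± 1.14 (n = 4) and subline 13 with 9.26 ± 0.35 (n = 3). Sublines 7, 18, 20 and 27 lay between 9.02 and 9.08, and sublines 10, 11, 25, 14 and 9 between 8.52 and 8.74. Below them were subline 28 with 8.15 ± 1.85, subline 16 with 8.11 ± 0.56 and subline 3 with 7.28 ± 1.93 (n = 3 each). The largest of the 16 gaps between neighbours in this order was 0.83, and the pooled SD of tumours within sublines was 1.43. Sorting the means makes such gaps small, so they do not test whether sublines differ.

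Tumours of one subline could span more than the subline means did. In 6 sublines the range of Adipoq was wider than the 3.22 log2 units between the highest and the lowest subline mean. The 3 tumours of subline 10 had 7.71, 11.40 and 7.10, a 19.7-fold range with 1 tumour high and the other two low. Tumours of subline 3 had 9.19, 5.34 and 7.32, and those of subline 18 had 9.49, 7.01 and 10.73. Subline 13 was the most even, with 9.64, 9.19 and 8.96.

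Other members ordered the sublines in a similar way at their ends. Fabp4 had its highest subline mean in subline 22 (11.26 ± 1.28) and its lowest in subline 21 (9.04 ± 0.22), a 4.66-fold span. Lpl gave 11.47 ± 0.87 in subline 22 and 9.22 ± 0.35 in subline 21, and Car3 gave 11.95 ± 1.16 and 9.80 ± 0.16 in the same sublines (SD, n = 3 each). Cidec had 7.92 ± 0.86 in subline 22 and 5.73 ± 0.11 in subline 21, and Retn 9.55 ± 0.50 and 8.18 ± 0.09 (SD, n = 3 each). Pparg was also highest in subline 22 (7.30 ± 0.66) and was lowest in subline 16 (6.37 ± 0.05). Lep alone had other ends, with 5.48 ± 0.35 in subline 7 and 5.12 ± 0.10 in subline 3, a 1.29-fold span. The same tumours enter all these means, so the shared ends are not separate observations.

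Set against the unweighted mean of the other sublines, subline 22 had 12 of 13 marker probe sets higher and 0 called, where 0.959% of all array A probe sets were called higher in that comparison. At an unadjusted p under 0.05 the count was 8 of 13, against 7.49% of all probe sets, and these 8 share the same 3 tumours. Cidec stood 1.48 ± 0.44 (SE) above the others (adjusted p = 0.0522), and Pparg 0.63 ± 0.20 (adjusted p = 0.0697). For Lpl the difference was 1.42 ± 0.51 (adjusted p = 0.131), for Retn 0.88 ± 0.32 (adjusted p = 0.128) and for Adipoq 1.75 ± 0.81, or 3.37-fold (adjusted p = 0.274; all by limma). The mean of the skeletal muscle list was 9.39, 10.85 and 12.00 in tumours 1, 2 and 3 of subline 22, against a median of 9.30 over all 52 tumours. With that list as a covariate the difference of subline 22 was 0.93 for Adipoq, 0.81 for Lpl, 1.04 for Cidec and 0.09 for Car3, against 0.98 for Car3 without it. The list itself varies with the markers, so this fit does not test what part muscle has in the difference. Leaving out the tumours of 1 replicate number moved the difference of Adipoq between 1.19 and 2.55.

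The tumours of subline 22 were not alike. Adipoq had 9.02, 11.19 and 11.09 in its tumours 1, 2 and 3, and Cidec had 6.93, 8.50 and 8.33. Pparg had 6.54, 7.77 and 7.58, so that in all 3 genes tumours 2 and 3 were high and tumour 1 lay near the mean of all tumours. Lep did not share this, with 5.26, 5.20 and 5.07, and its difference from the other sublines was -0.08 ± 0.10 (limma adjusted p = 0.810). Leaving out the tumours numbered 1 called 2 probe sets in subline 22, Pparg with a difference of 1.03 (limma adjusted p = 0.0227) and a dimmer probe set of Fabp4, where 0.327% of all probe sets were called higher. The difference of Cidec passed after each array was shifted to the same median (1.49, limma adjusted p = 0.0495), and array quality weights called 8 of 13, where 5.49% of all probe sets were called higher.

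Subline 21 lay at the other end, with 13 of 13 marker probe sets lower than the mean of the other sublines and 0 called, where 0.99% of all probe sets were called lower. At an unadjusted p under 0.05 there were 2 of 13, against 8.78% of all. Adipoq had 6.32, 7.65 and 7.68 in its tumours, all under the mean of 8.88 of the other sublines, with a difference of -1.67 ± 0.81 (limma adjusted p = 0.255), or -0.89 with the muscle list as a covariate. Car3 had 9.64, 9.96 and 9.80, with a difference of -1.30 ± 0.70 (limma adjusted p = 0.307). Fabp4 differed by -1.04, Lpl by -0.96, Cidec by -0.85, Retn by -0.57, Pparg by -0.29 and Lep by -0.14. Tumour 1 of subline 21 also had the lowest mean of the luminal epithelium list, 10.34 against a median of 11.32 over all tumours, and 2 genes of that list, Cldn3 and Cldn4, were lower in subline 21 (adjusted p = 0.00553 and 0.0266 by limma). The array A hybridisation of tumour 1 of subline 21 had the lowest median correlation of the kept arrays, 0.97. What part these features have in the marker values was not tested.

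**Figure D3:**
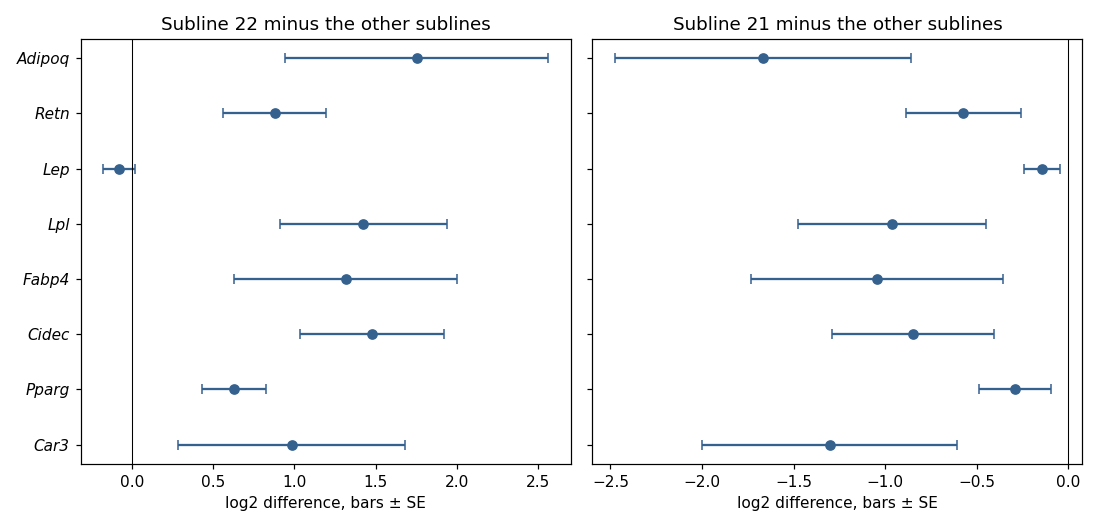
Difference in log2 expression value (horizontal axis) between subline 22 (left) or subline 21 (right) and the unweighted mean of the other 16 sublines, for each marker gene (vertical axis). Points are limma estimates and bars ± 1 SE, with n = 3 tumours in each named subline; in subline 22 every gene but Lep is above 0, and in subline 21 all 8 are below 0.

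Over all 17 sublines, 0 of 221 comparisons of a marker probe set in a subline were called on array A, where 0.459% of such comparisons were called over all probe sets. Subline 2 had 13 of 13 marker probe sets above the others and subline 3 had 13 of 13 below. In each, 0 of 13 had an unadjusted p under 0.05 by limma, and the smallest adjusted p was 0.602 and 0.921. The 13 probe sets of a subline share the same tumours. On array B, 0 of 36 comparisons were called, against 0.276% over all. Subline 23, which has kept arrays only there, had the highest Car3 mean on array B, 7.03 ± 1.02 (SD, n = 2), from 7.75 in tumour 1 and 6.32 in tumour 3. Its difference from the other sublines was 0.36 ± 0.23 (SE, limma adjusted p = 0.462), with 1.19% of all probe sets called higher in that comparison. At an unadjusted p under 0.05 it was 1 of 2 Car3 probe sets, the dimmer one, against 7.06% of all. Without the tumours numbered 1 the difference turned to -0.33, and without those numbered 3 it was 1.06 and called (limma adjusted p = 0.0177). Each of these values rests on 1 tumour of subline 23, which the fit assumes to vary like the tumours of the other sublines.

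The marker genes rose and fell together from tumour to tumour. Over 52 tumours Adipoq correlated with Fabp4 at r = 0.97 (rho 0.97), with Car3 at 0.93 (0.93), with Lpl at 0.92 (0.94) and with Cidec at 0.91 (0.95). Pparg followed Adipoq with r = 0.86 (rho 0.92) and Retn with 0.83 (0.88). Lep was the loosest with r = 0.38 (permutation p = 0.00475) and rho = 0.36 (permutation p = 0.0088). For the other 6 genes both permutation p-values were 1e-05 (adjusted 1.17e-05 over 7 relations), the smallest that 100000 resamples can give. All 7 relations passed after adjustment.

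These relations held within sublines. With each subline's mean removed, r was 0.97 for Fabp4, 0.94 for Car3, 0.91 for Lpl and Cidec, 0.84 for Pparg, 0.80 for Retn and 0.45 for Lep (permutation p = 0.00991). Without the 2 tumours farthest from the Adipoq median, r was 0.96 for Fabp4, 0.93 for Car3, 0.94 for Lpl, 0.92 for Cidec, 0.87 for Pparg and Retn and 0.40 for Lep. The relation of Lep was lost without the tumours numbered 1 (r = 0.31, adjusted p = 0.0669 by permutation) and with all 56 arrays (r = 0.02, adjusted p = 0.891 by permutation). In the plot of each gene against Adipoq the relation bends: Cidec, Pparg and Retn change little over the lower Adipoq values and climb over the upper ones, while Car3 flattens at the top.

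**Figure D4:**
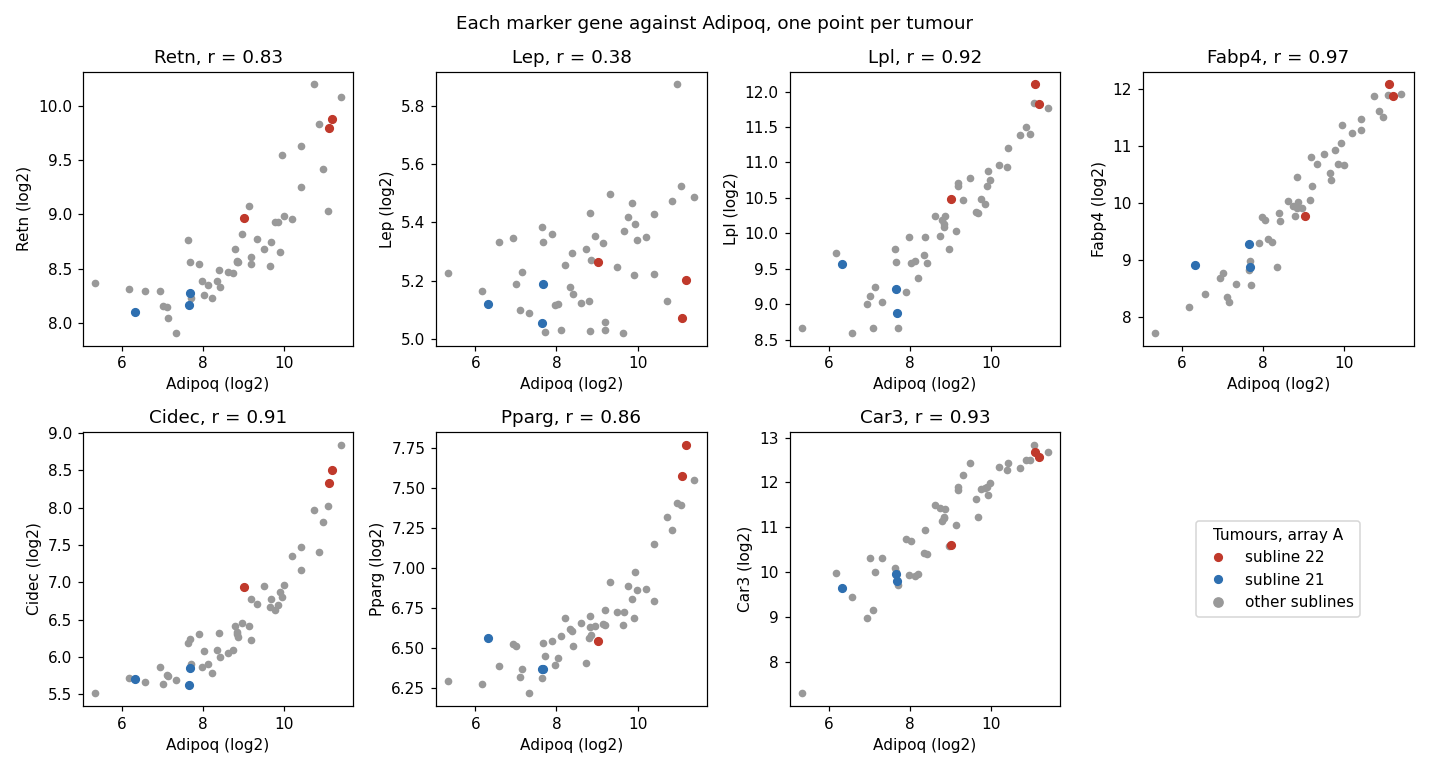
Log2 expression value of each other marker gene (vertical axes) against that of Adipoq (horizontal axes) on array A, 1 point per tumour, with subline 22 in red, subline 21 in blue and the other sublines in grey. Pearson r over the 52 tumours stands above each panel, from 0.97 for Fabp4 to 0.38 for Lep.

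A principal component analysis of the 8 genes put 81.0% of their variance over tumours on the first component and 10.4% on the second. Tumour 2 of subline 10 was among the 5 highest tumours for 8 of 8 genes. Tumours 2 and 3 of subline 22 and tumour 1 of subline 24 were among the 5 highest for 7 of 8. At the other end, tumour 2 of subline 3 was among the 5 lowest for 6 of 8 genes, and tumour 3 of subline 10 and tumour 1 of subline 14 for 5 of 8. Subline 10 thus supplied both a tumour from the top of this order and one from the bottom. Leaving out tumour 2 of subline 3, an alternative chosen after its values were seen, changed no call among these results: 0 of 13 in the F test, 0 in the subline comparisons and 7 of 7 relations.

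Likeness to the marker genes is given as Pearson r with the mean of the 8 marker genes over 52 tumours, as a description, since all genes share the same arrays. Cd36, a fatty acid transporter, came first with r = 0.98 (rho 0.98, values 5.97 to 10.00). It was followed by Plin4, a lipid droplet coat protein, with 0.94, and by Dgat2, which makes triglyceride, with 0.93. Lipe, the hormone-sensitive lipase, had 0.93 and Glul, glutamine synthetase, 0.91. Aoc3, an amine oxidase of fat cells and vessels, had 0.90, Slc2a4, the insulin-regulated glucose transporter, 0.89, and Rbp4, a retinol carrier that fat cells also secrete, 0.89. Dpep1, a dipeptidase, and Cyp2e1, a cytochrome P450 enzyme, had 0.89 and 0.87. Over all probe sets of array A the median r was -0.03 and 67 of 22626 reached 0.8.

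On array B, over 51 tumours, Trarg1, which takes part in the traffic of the insulin-regulated glucose transporter, had r = 0.87. Next were Pck1, a phosphoenolpyruvate carboxykinase that supplies glycerol backbones in fat cells, with 0.86, and Gpat3, an acyltransferase of triglyceride synthesis, with 0.83. Slc36a2, an amino acid transporter, had 0.82 and Ptprb, a phosphatase of vessel walls, 0.81. At the opposite end on array A stood Egln3 and Car9, both known as targets of the hypoxia-inducible factor, with r of -0.71 each. Wwtr1 (-0.69), Igfbp3 (-0.68) and Enah (-0.67) followed. None of these 20 genes was called in the F test among sublines (adjusted p 0.352 to 0.864 by limma).

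Lists of other fat cell genes varied with the markers in part. Of 12 lipolysis and lipid droplet genes with a probe set, 9 had r of at least 0.5 with the marker mean (median 0.71), where 4.3% of all probe sets did. Cavin1 (0.82) and Cav1 (0.81), which build the caveolae of the fat cell membrane, and Pnpla2 (0.78), the lipase that opens triglyceride breakdown, were among them. Plin3, a droplet coat protein of many cell types, had -0.38. Of 12 triglyceride synthesis genes 8 reached 0.5 (median 0.56), with Gpd1 at 0.86, Fasn, the fatty acid synthase, at 0.82 and Mogat1 at -0.17. Of 9 uptake and transport genes 3 did (median 0.44), and Fabp5, the epidermal relative of Fabp4, ran against the markers with -0.62.

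Among 11 transcription factors of fat cell formation 5 reached 0.5 (median 0.45), led by Cebpa with 0.77 and Rxra, the partner of PPARγ, with 0.71. Cebpb (-0.27) and Srebf1 (-0.34) lay below 0. Of 6 receptor genes and other members of the adipokine and hormone receptor list 3 reached 0.5 (median 0.44). They were Pnpla3 with 0.75, Adipor2, an adiponectin receptor, with 0.67 and Ffar2 with 0.55. The adiponectin receptor Adipor1 had 0.33, the insulin receptor Insr -0.07 and the leptin receptor Lepr -0.255. Of 9 other fat cell products 8 reached 0.5 (median 0.73), with Orm1 at 0.77 and Sncg at 0.77. In the F test among sublines, Zfp423, a zinc finger factor of fat cell precursors, and Agt, angiotensinogen, were called (limma adjusted p = 0.0301 and 0.0312). Their r with the markers was -0.13 and 0.21, so these 2 genes did not follow the marker order. None of the other 57 genes of these 6 lists was called.

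In the 2 sublines at the ends of the Adipoq order, few of these genes were called. Pnpla2 was higher in subline 22 by 0.59 ± 0.16 (SE, limma adjusted p = 0.0301), and so was Cebpd by 0.53 ± 0.16 (limma adjusted p = 0.0498). In subline 21 Zfp423 was higher by 1.19 ± 0.23 (limma adjusted p = 0.00316) and Srebf1 by 0.49 ± 0.13 (limma adjusted p = 0.0276). Pnpla2 has r = 0.78 with the marker mean, while Cebpd has -0.07. The share of all probe sets called higher was 0.959% in subline 22 and 2.41% in subline 21.

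**Figure D5:**
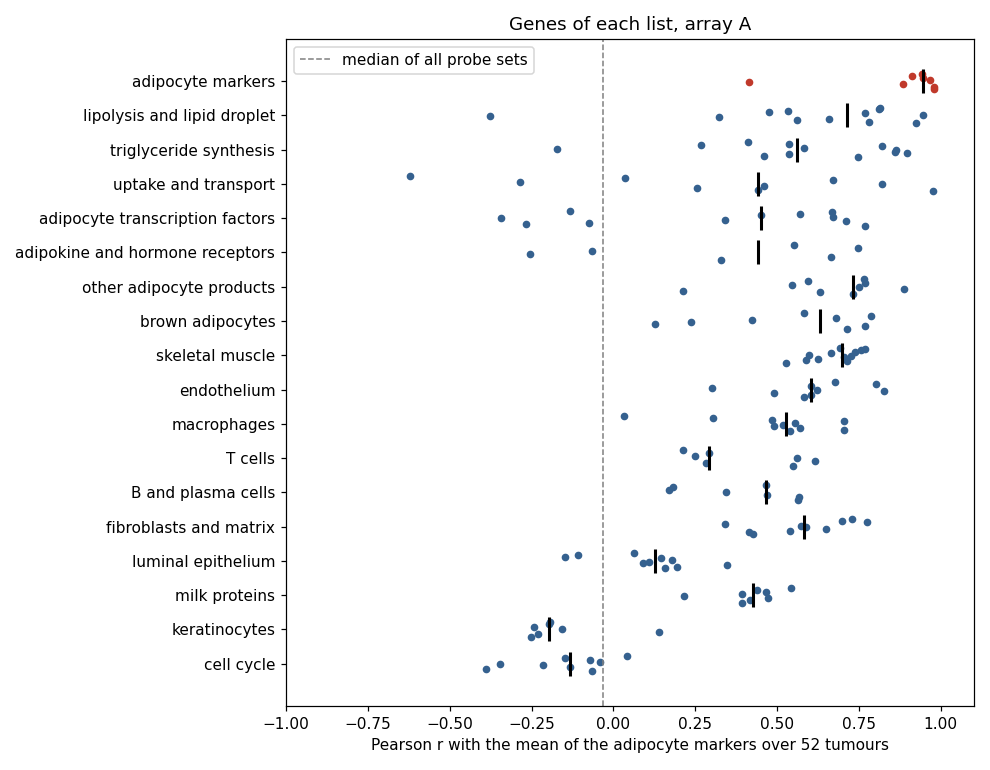
Pearson r with the mean of the 8 marker genes over 52 tumours (horizontal axis) for each gene of 18 lists (vertical axis), brightest array A probe set per gene. The marker list is among the 18, and its genes are part of the mean that they are set against. Points are genes, black bars list medians and the dashed line the median of all probe sets, -0.03; all 12 skeletal muscle genes lie above 0.5 and no luminal epithelium gene does.

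Markers of several other cell types moved with the fat cell genes. The part of these cell types in the marker values was not tested. The skeletal muscle list itself varies with the markers, so the fits with it as a covariate do not test its part. All 12 skeletal muscle genes had r of at least 0.5 with the marker mean (median 0.70), with Myoz1, a Z-disc protein, at 0.77 and Pvalb, a calcium buffer of fast fibres, at 0.74. The mean of that list ran from 6.77 over 9.30 to 12.00 in the lowest, the median and the highest tumour, and the highest was tumour 3 of subline 22. Beside the values of subline 22 given above, it stood at 8.60, 8.60 and 6.86 in the tumours of subline 21. None of its 12 genes was called among sublines.

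Each marker gene was set against the mean of the muscle list over 52 tumours. Car3 followed it most closely with r = 0.763 (rho 0.828), then Lpl with 0.707 (0.742), Fabp4 with 0.634 (0.675), Cidec with 0.629 (0.643) and Adipoq with 0.609 (0.651). Pparg had 0.578 (0.605), Retn 0.468 (0.525) and Lep 0.17 (0.154). By two-sided permutation test adjusted over these 8 relations, p was at most 0.000469 for r in the first 7 and 0.228 in Lep. Without the 2 tumours farthest from the median of the muscle list, r was 0.749 for Car3, 0.605 for Adipoq and 0.455 for Retn. With the muscle list as a covariate, 0 of 13 marker probe sets were called among sublines.

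Brown fat genes followed the markers in part, 5 of 8 with r of at least 0.5 (median 0.63), against 4.3% of all probe sets. Ppargc1a (0.13), Dio2 (0.24) and Elovl3 (0.42) did not reach it, and Cidea is also in the lipolysis and lipid droplet list. Ucp1, the uncoupling protein that defines brown fat cells, ran from 6.81 to 11.52 with r = 0.71. Cox8b, a subunit isoform of cytochrome oxidase found in brown fat and muscle, ran from 7.02 to 10.18 with r = 0.79, and Cidea from 6.60 to 10.24 with r = 0.77. The mean of the list was 7.37, 8.52 and 8.94 in the tumours of subline 22, the highest of all 52 in tumour 3, and 7.27, 7.37 and 7.17 in those of subline 21. Subline 10 had 7.32, 8.56 and 7.14, with its tumour 2 high here too.

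Vessel, stromal and immune lists lay between. Of 9 endothelial genes 7 reached r = 0.5 (median 0.60, Tek 0.83), of 10 fibroblast and matrix genes 7 (median 0.58, Dpt 0.77) and of 10 macrophage genes 6 (median 0.53, Mrc1 0.70). For T cells it was 3 of 7 (median 0.29), for B and plasma cells 2 of 7 (median 0.47) and for milk proteins 1 of 8 (median 0.43). No gene reached 0.5 among 10 of luminal epithelium (median 0.13), 7 of keratinocytes (median -0.20) and 9 of the cell cycle (median -0.13). Of the cell type lists only the cell cycle list had a gene called among sublines, Ccna2 (limma adjusted p = 0.0392).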

How the data were processed

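Total RNA of 56 tumours was labelled with biotin and hybridised to 2 arrays per tumour, per the labels' protocols. The authors deposited RMA values on the log2 scale (RMA is the robust multi-array average), as the submitters' processing notes name it. Which RMA version, probe set definition and build they used was not given in the sources used here. Arrays A and B are separate tables and were tested separately. Columns that belong to no sample numbered 0. The log2 values were used as deposited, without the 64 control probe sets of each array.

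Gene symbols are those of the platform annotation, updated where its gene IDs matched RefSeq's table for GRCm38.p6; on array A 20380 probe sets had 1 symbol, 691 several and 1555 none listed, and on array B 14661, 245 and 7605. Promoters came from RefSeq on GRCm38.p6 and matched 7 of the 10 genes. The members and lists were chosen with earlier results of these data known, and so was the choice of arrays left out. Lists hold 1 probe set per gene, the brightest over the kept arrays.

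A model with 1 mean per subline was fitted with limma 3.58.1 (lmFit, eBayes) in R 4.3.3. Its moderated F test, and each subline against the unweighted mean of the others, were adjusted by Benjamini-Hochberg over all probe sets and called under 0.05. These p-values and SEs rest on the spread between tumours of a subline, which the labels call biological replicates, pooled over all sublines. They do not describe the spread of the named subline alone. The SDs within sublines were unequal, for Pparg 0.0057 in subline 13 and 0.68 in subline 10. Relations across tumours used 100000 permutations (Python 3.11.15, numpy 2.4.6, scipy 1.17.1, pandas 2.3.3), adjusted over 7 relations where 9 had been planned, since Plin1 and Cfd have no value. Genes named are all members, the 10 genes of array A and 5 of array B most like the member mean, the 5 least like it on array A, the highest and lowest subline of each member, and list genes that were called or had the highest r, up to 3 a list. Other list genes were named after their values were seen. The fit was tested on simulated data with known differences. Alternatives were all arrays, a replicate block, leaving out dimmer probe sets, quantile normalization, median centring, array weights, a trended robust prior, the muscle list as a covariate, leaving out each replicate, the mean of all probe sets of a gene and, added after seeing the data, Adipoq as a covariate and leaving out tumour 2 of subline 3. Same-numbered tumours of different sublines did not deviate together: on array A their deviations from the subline means correlated at -0.003 on average over 393 pairs.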

Additional observations from a re-analysis of the deposited data

How the results depend on the processing

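Of the counts of marker probe sets called among sublines, 0 of 13 and 0 of 2, one changed, to 4 of 13 on array A with array weights (Pparg, Cidec, Lep and the dimmer Lpl probe set). The replicate block changed no call of a marker probe set, and with it 403 probe sets of array A and 125 of array B were called among sublines, against 393 and 151 without it. Calls over all probe sets of array A were 889 with all arrays, 9234 with array weights, 14 to 389 without a replicate and 396 without tumour 2 of subline 3; on array B they were 30, 4798 and 25 to 255. For marker probe sets in single subline comparisons on array A, 0 were called, against 1 with all arrays (Lep in subline 23), 1 with median centring (Cidec in subline 22), 8 with array weights (subline 22) and 0 to 2 without a replicate. On array B the count of 0 became 1 with the muscle covariate and 0 to 2 without a replicate, all Car3 in subline 23, whose difference of 0.36 reversed to -0.33 without replicate 1 and was 1.06 without replicate 3, each from a lone tumour assumed to vary like those of the other sublines. Relations with Adipoq that passed numbered 6 to 7 without a replicate and 6 with all arrays, the exception being Lep. Outside array weights, the adjusted p of the marker genes in the F test was 0.315 or higher in all 111 values. The cause of these shifts was not tested. With 3 tumours in most sublines, each subline mean has the wide error given with it.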

Other observations

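Some values on the array A hybridisations left out lay outside the range of the kept arrays, for Lep, Pparg, Lpl and Fabp4. Lep was 6.98 in tumour 3 of subline 25 and 6.70 in tumour 3 of subline 23, against at most 5.87 on the 52 kept arrays. Pparg stood at 7.78 in tumour 3 of subline 25 and at 7.98 in tumour 2 of subline 23, against at most 7.77 on the kept arrays. Lpl stood at 7.17 in tumour 3 of subline 23, against at least 8.59 on the kept arrays. Of the dimmer Fabp4 probe sets, 1 had 6.07 in tumour 3 of subline 23, against at least 6.32, and another 10.05 in tumour 1 of subline 23, against at most 9.91. Adipoq on the left-out arrays had 10.93, 7.26 and 7.99 in tumours 1, 2 and 3 of subline 23 and 7.37 in tumour 3 of subline 25, all within the range of the kept arrays. Tumour 1 of subline 23 was also high for Car3 on array A (12.76) and had the highest Car3 value on array B (7.75), where its array was kept. These arrays had median correlations between 0.223 and 0.948 with the other arrays, and whether that bears on these values was not tested.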
